A study of Mus musculus with 8 samples.

Results

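Integrins and other cell adhesion molecules were examined in the bulk RNA-seq of tumor-associated macrophages (TAMs), the macrophages that live inside a tumor. The genes were chosen by name as protein-coding genes of the deposited tables: those whose symbol starts with Itga, Itgb followed by 1 digit, and Icam1, Icam2, Icam4, Vcam1, Selplg, Cd44, F11r, Jam2, Jam3, Esam, Alcam and Cd99l2, with Itgal and Itgae left out. This gave 36 gene identifiers of 26939 in all, with 35 symbols: 16 integrin α chains, 8 integrin β chains and 11 other adhesion molecules. Icam4 was not analysed here. Symbol Itgam stood for a pair of identifiers, and the second of these (ENSMUSG00000108596, called Itgam-2 below) overlaps the main Itgam gene on the same strand, so that reads of the 2 cannot be told apart with certainty.

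TAMs came from EO771 mammary tumors, a breast cancer cell line grown in the mammary fat pad of female mice aged 8 to 14 weeks, and were taken at day 21 by sorting viable cells that were positive for CD45, CD11b and F4/80 and negative for Gr-1. WT mice and mice with the Unc93b1 3d/3d genotype were each left as controls or given αMARCO, which makes 4 groups of 2 libraries. The 3d allele is a germline mutation of Unc93b1, the chaperone that brings nucleic acid-sensing TLRs to the endosome, so all cells of these mice lack endosomal TLR function. For αMARCO, 100 µg of an antibody against the scavenger receptor MARCO was given on days 3, 6, 9 and 12. Control mice are labelled as untreated or PBS-injected while the methods name a rat isotype antibody, so their injection is not settled, and 1 of the Unc93b1 3d/3d control libraries carries the genotype 3d/4d in 1 label and 3d/3d in its title. Each control library was pooled from the TAMs of 3 mice, and for the αMARCO libraries pooling is not given in the sources used here.

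Integrins are paired receptors of an α and a β chain that hold cells to matrix proteins and to other cells. The β2 chain pairs in leukocytes with αL, αM, αX or αD, the β1 chain with many α chains that bind collagen, laminin or fibronectin, and the αv chain with β chains that bind RGD motifs in matrix proteins and in latent TGF-β. ICAMs and VCAM-1 are counter-receptors of β2 integrins and of α4β1, PSGL-1 (gene Selplg) is the leukocyte ligand of selectins, CD44 binds hyaluronan, and JAMs, ESAM and CD99L2 sit at cell junctions and take part in leukocyte passage through vessel walls. In macrophages, αMβ2 (CD11b) and αXβ2 (CD11c) serve as complement receptors and as markers.

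Because the α chains of the β2 integrins lie side by side on chromosome 7, the bases before Itgam and Itgax are shown first, with those before F11r and Itga5, the genes with an entry in the promoter table that had, respectively, the largest called fold change between the control genotypes and the highest level among genes called higher with αMARCO. Sequences are from RefSeq on GRCm38.p6 and cover the 150 bases before the start site, 5′ to 3′ in the direction of transcription. Capitals mark a match to the ETS core GAGGAAG in Itgam and to the AP-1 motif TGANTCA in Itgax and F11r, and Itga5 held no match. The windows are chr7:128062490-128062639 (+) for Itgam, chr7:128129400-128129549 (+) for Itgax, chr1:171437411-171437560 (+) for F11r and chr15:103366792-103366941 (−) for Itga5.
Itgam: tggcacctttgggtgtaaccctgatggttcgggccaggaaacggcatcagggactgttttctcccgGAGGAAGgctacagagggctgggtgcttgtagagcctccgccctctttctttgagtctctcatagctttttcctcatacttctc
Itgax: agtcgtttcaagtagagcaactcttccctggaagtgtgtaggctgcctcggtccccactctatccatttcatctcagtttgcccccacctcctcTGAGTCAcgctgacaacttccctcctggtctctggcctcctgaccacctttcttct
F11r: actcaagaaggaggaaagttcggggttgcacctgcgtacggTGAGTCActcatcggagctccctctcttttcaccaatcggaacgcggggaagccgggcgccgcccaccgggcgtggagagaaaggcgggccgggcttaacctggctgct
Itga5: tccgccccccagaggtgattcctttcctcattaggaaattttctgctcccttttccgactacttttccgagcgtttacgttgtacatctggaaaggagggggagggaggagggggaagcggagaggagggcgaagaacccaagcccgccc
The promoter table matched 23 of the 35 symbols, and Itgad, Itgb2, Itgb3, Itgb4, Itga6, Itga7, Icam2, Vcam1, Esam, Jam2, Jam3 and Selplg had no entry. In the 250 bases before the start site, on either strand, GAGGAAG stood in 6 of the 23 promoters and in 10.6% of all 32817. TGANTCA stood in 2 of the 23 and in 6.75% of all, and the short repeat of the interferon-stimulated response element in 2 of the 23 and in 2.97% of all. The κB motif stood in 0 of the 23 and in 3.9% of all. No hits of different motifs overlapped in the windows shown, and the 4 genes shown were chosen after their values were seen. A match describes the letters and no more. For Itga9 the RefSeq start lay 105002 bases from the start listed in the tables, and for Alcam 993 bases.

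Library totals ran from 15182618 to 26411936 counts, and a floor of 3 counts equals 0.114 to 0.198 CPM, counting error only. Unc93b1, the mutated gene, had 849 and 966 CPM in the WT control libraries and 750.1 and 708 CPM with αMARCO. For Unc93b1 in Unc93b1 3d/3d TAMs the levels were 539.5 and 660.2 CPM without αMARCO and 558 and 641 CPM with it. Its transcript was thus present in all 8 libraries, so that its level does not check the genotype. The Unc93b1 3d/3d αMARCO libraries stood far apart: the median gene differed between them by 0.536 on the log2 scale, against 0.147 to 0.202 between the libraries of the other groups. All 10 macrophage markers were present, the lowest being Mertk at 66.7 CPM or more. Summed T cell markers (10 genes) were at 106 and 121.5 CPM in WT control and at 7.77 to 24.9 CPM in the other 6 libraries, and NK cell markers (7 genes) at 33.4 and 27.3 against 3.01 to 12.4 CPM. Conventional dendritic cell markers (9 genes) summed to 718 and 417 CPM in WT control against 99.3 to 142 CPM elsewhere. Ccr7 (214 and 119 CPM) and Fscn1 (288 and 153 CPM) held most of the WT control sums. Xcr1 was at 8.69 and 9.21 CPM in WT control and Clec9a at 1.42 and 2.16 CPM. Elsewhere these 2 were at 3.58 to 7.76 and 0.618 to 1.90 CPM. Of the 9 genes 3 were called higher in WT control than in Unc93b1 3d/3d control. Nonclassical monocyte markers (8 genes) summed to 1392 to 1565 CPM in the 4 WT libraries. In the 4 Unc93b1 3d/3d libraries this sum was 452 to 1067 CPM. Cd300e held much of the difference, at 558 and 616 CPM in WT control and 255 and 267 CPM in WT αMARCO. In Unc93b1 3d/3d libraries Cd300e was at 13.9 CPM or less. Pou2f2 and Spn were also higher in each WT library, while Cx3cr1 was lower in each. Nr4a1 overlapped, at 477 to 863 CPM in WT and 309 to 918.5 CPM in Unc93b1 3d/3d libraries. Classical monocyte markers (7 genes) summed to 611 to 1478 CPM over all 8. Endothelial markers (10 genes) summed to 356 and 373 CPM in WT control, 270.6 and 264.5 in WT αMARCO and 149 to 190 CPM in Unc93b1 3d/3d libraries, with Cldn5, Emcn and Tek under 1 CPM in every library. Pecam1 held most of the difference between these sums: without it the other 9 genes summed to 154 and 174 CPM in WT control, to 161 CPM or less in the 4 Unc93b1 3d/3d libraries and to 163 and 159 CPM in WT αMARCO. The other lists summed to 4.77 to 43.4 CPM for B cells and 218 to 380.1 CPM for neutrophils (mostly Csf3r, with Ly6g under 1 CPM). Fibroblast markers summed to 26.95 to 192 CPM (Col3a1 the largest part) and epithelial markers to 30.9 to 106 CPM (nearly all Cdh1 and Krt8). Platelet markers summed to 9.49 to 61.0 CPM (nearly all Ppbp, the other 7 genes being under 1 CPM). What part these other cells had in the adhesion gene differences was not tested.

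**Figure D1:**
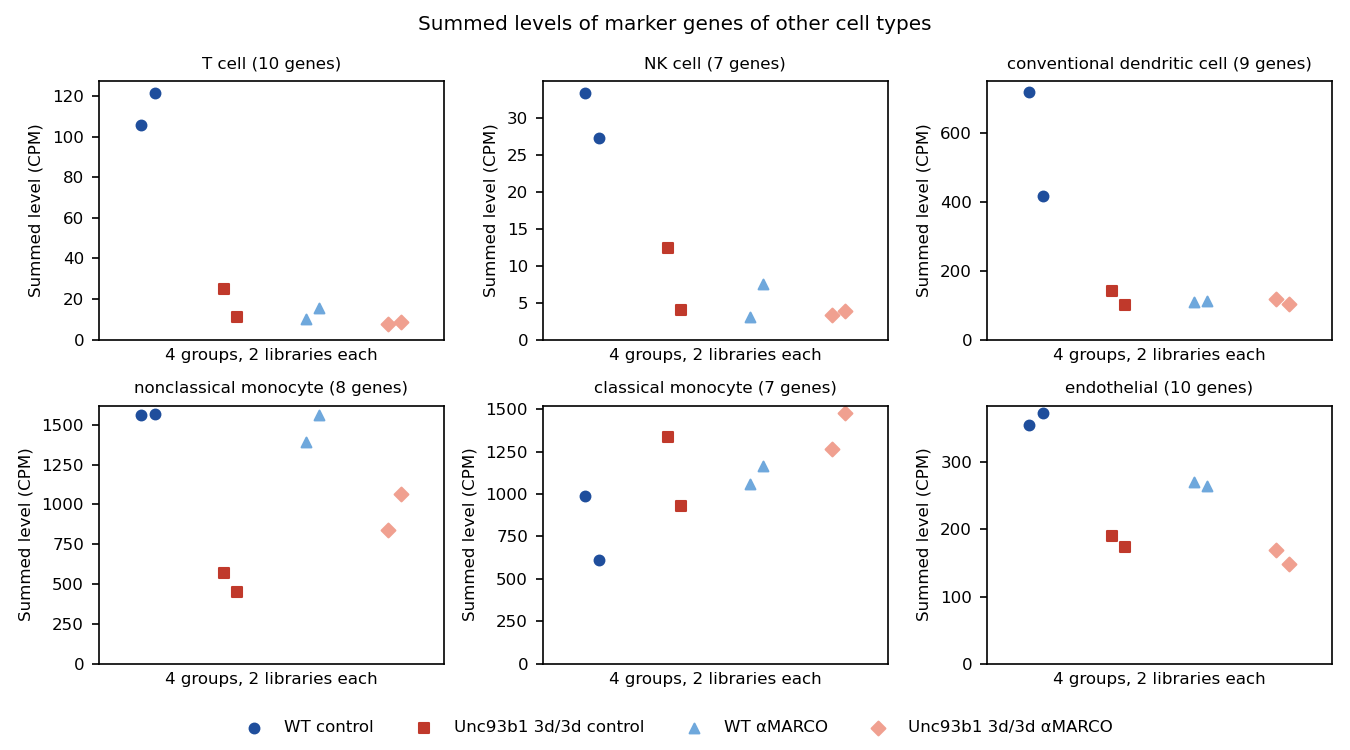
Summed levels (CPM, linear axis from 0) of marker genes of 6 other cell types, 1 point per library in 4 groups of 2. T cell markers were at 106 and 121.5 CPM in the WT control libraries and at 24.9 CPM or less in the other 6. Nonclassical monocyte markers were at 1392 CPM or more in the 4 WT libraries. In the 4 Unc93b1 3d/3d libraries they were at 1067 CPM or less. Cd300e held much of this difference, while Cx3cr1 of the same list was lower in each WT library.

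Between the control groups, WT TAMs had higher RNA levels of αD, αM, β2 and β8 and of the α4 and α9 chains. RNA levels of ICAM-1, ICAM-2, JAM-A (F11r) and PSGL-1 were also higher, and those of ALCAM, β5 and α6 were lower. Of the 36 genes, 31 passed the filter on low counts, and 10 were called higher in WT and 3 lower, where a call needs both an adjusted p no higher than 0.05 in edgeR's quasi-likelihood test and a log2 fold change of 0.5 or more in size. Over all 15600 genes tested, 6.58% were called higher and 6.40% lower in WT. The median log2 fold change was 0.25 over the 31 adhesion genes tested and −0.00 over all genes. In bulk RNA, fewer cells of a type and less RNA per cell cannot be told apart. When all 8 libraries entered 1 model, 3 adhesion genes were called (Itgad, F11r and Selplg). With 1 library left out the genes called changed. Itga4, Itga6, Itga9, Itgb8 and Icam1 each lost the call in some fit, and Itga1, Itgb3, Itgb7 and Jam2 each gained it in some fit.

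With αMARCO in WT TAMs, RNA levels of αD, β8, α3, VCAM-1, PSGL-1, CD99L2, JAM-A, β1 and α4 fell. Those of α5, α8 and α1 rose. Of 33 adhesion genes tested, 9 were called lower and 4 higher, the fourth being Itgam-2, against 11.8% lower and 8.91% higher of all 15630 genes. Median log2 fold changes were −0.38 over these 33 and −0.01 over all genes. These libraries share the WT control group with the comparison of control genotypes, so the same 2 libraries enter both. In the model of all 8 libraries 3 were called (Itga5, Itgad and Itgb8). With 1 library left out, Itgam-2 lost the call in every fit and Itga1, Itga4, Itga8, F11r and Cd99l2 each in some fit. Itgam, Itga6, Icam2, Itgb3, Itgb4 and Itga11 each gained it in some fit.

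**Figure D2:**
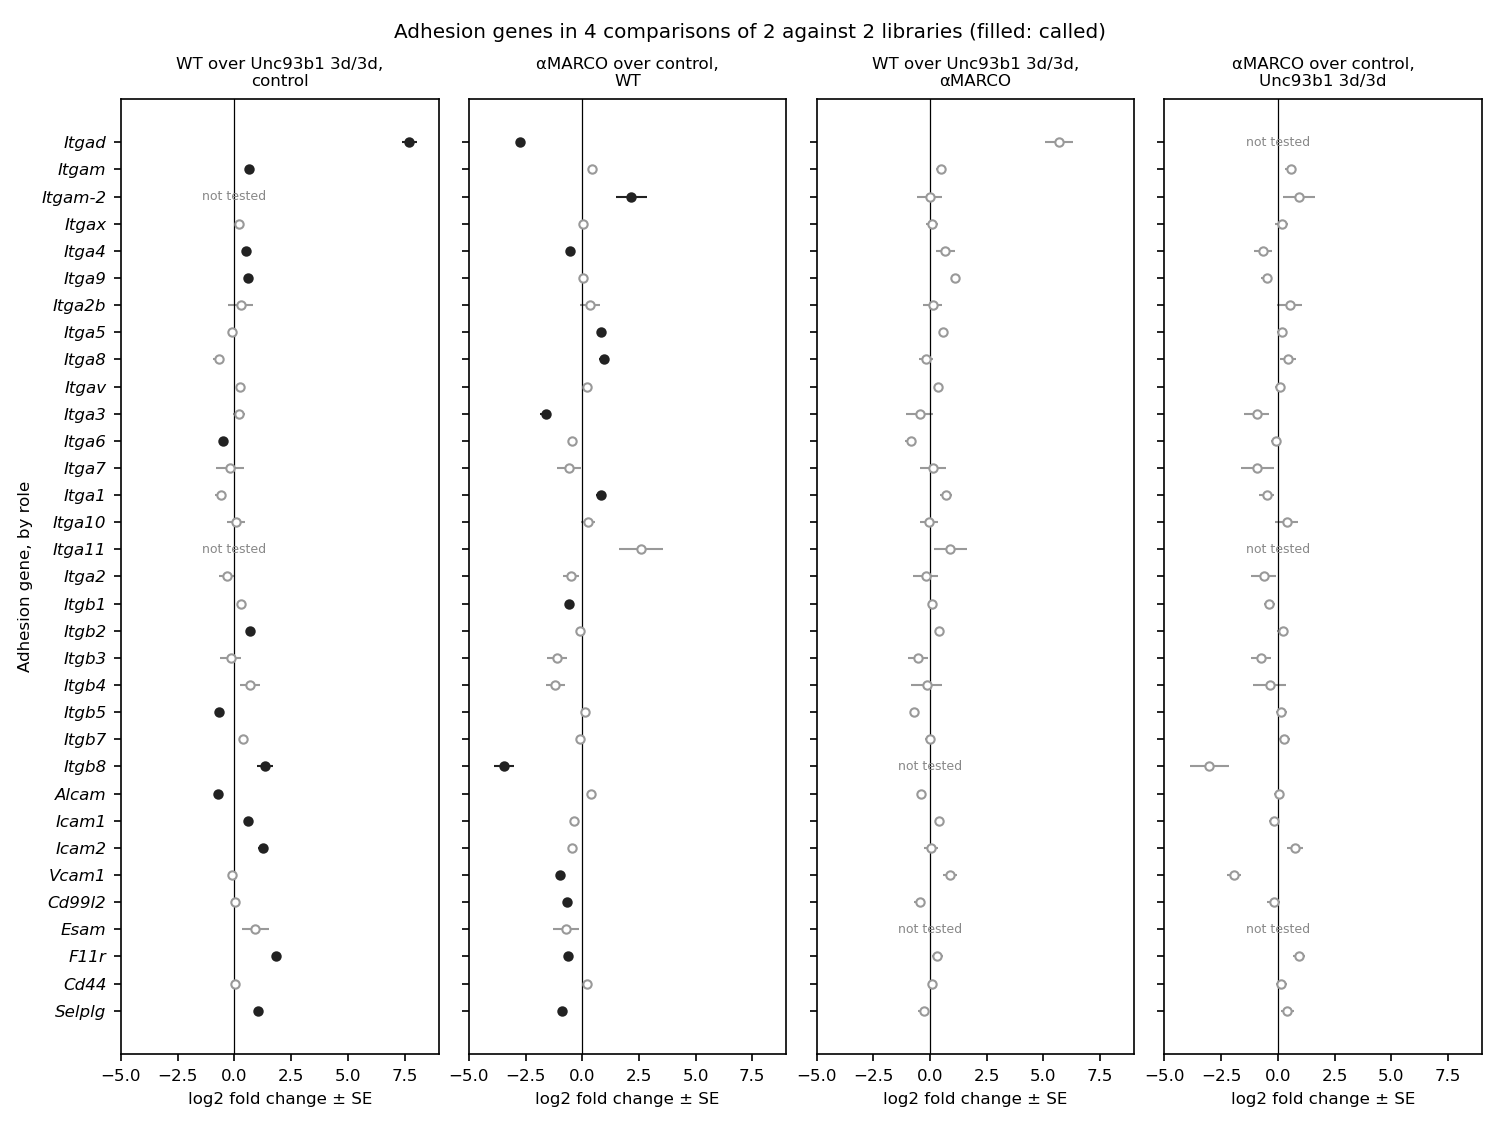
Log2 fold changes with standard errors (edgeR, 2 against 2 libraries) of the adhesion genes tested in at least 1 comparison, grouped by role, with filled points for called genes. In control TAMs 13 genes were called between genotypes and in WT TAMs 13 with αMARCO, while none was called in the 2 right-hand panels, where standard errors were wider.

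Among the β2 integrins, Itgad (αD, chromosome 7, 128154376 to 128223816) had the largest difference of all adhesion genes tested between the control genotypes. Its level was 34.6 and 27.7 CPM in the WT control libraries and 3.98 and 5.21 CPM with αMARCO. For Itgad in Unc93b1 3d/3d TAMs the levels were 0.0628 and 0.203 CPM without αMARCO and 0.0452 and 0.136 CPM with it. In the 4 Unc93b1 3d/3d libraries it was at or under the floor in 3 and at 4 counts in the other. These libraries lay below all 4 WT libraries, while the control and αMARCO groups of Unc93b1 3d/3d overlapped. In counts, the control groups held 1156 in WT and 5 in Unc93b1 3d/3d, a ratio of 222 (exact 95% interval 95 to 686), and the fitted log2 fold change was 7.71 (SE 0.33, edgeR adjusted p = 2.77e-06). With αMARCO, Itgad fell in WT TAMs at a log2 fold change of −2.74 (SE 0.18, edgeR adjusted p = 3.85e-05), to 0.148 times the control level. Under αMARCO the genotypes held 217 and 3 counts, a ratio of 57.3 (19.4 to 280), with a log2 fold change of 5.69 (SE 0.63, edgeR adjusted p = 0.171) that was not called. In the 4 αMARCO libraries the summed T cell markers were at 7.77 to 15.5 CPM. Of the nonclassical monocyte markers, Cd300e, chosen after its values were seen, was at 558 and 616 CPM in the WT control libraries and 255 and 267 CPM with αMARCO. For Cd300e in Unc93b1 3d/3d TAMs the levels were 10.1 and 7.57 CPM without αMARCO and 13.9 and 9.73 CPM with it. The 8 genes of this list did not move together: in WT control 4 were called higher (Cd300e, Spn, Pou2f2 and Eno3) and 1 lower, Cx3cr1 (log2 fold change −0.92, SE 0.17, edgeR adjusted p = 0.00707). With αMARCO in WT 3 fell (Cd300e, Spn and Eno3) and 1 rose, Nr4a1, from 583 and 477 CPM to 750 and 863 CPM (log2 fold change 0.61, edgeR adjusted p = 0.00378). The part of these cells in the Itgad difference was not tested.

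Itgam (αM or CD11b, chromosome 7, 128062640 to 128118491) encodes an antigen used for the sort, so its level describes cells chosen for the protein. It was at 492 and 499.7 CPM in the WT control libraries and 586 and 722 CPM with αMARCO. For Itgam in Unc93b1 3d/3d TAMs the levels were 291 and 342 CPM without αMARCO and 422 and 512 CPM with it. The WT control libraries lay above both Unc93b1 3d/3d control libraries, with a log2 fold change of 0.63 (SE 0.11, edgeR adjusted p = 0.00458). With αMARCO its difference in WT was 0.41 (SE 0.11, edgeR adjusted p = 0.0156), under the fold change threshold, and 0.57 (SE 0.25, edgeR adjusted p = 0.823) in Unc93b1 3d/3d TAMs. Without the first WT αMARCO library it was called, at 0.56. Itgam-2 rose in WT TAMs with αMARCO at a log2 fold change of 2.17 (SE 0.68, edgeR adjusted p = 0.0317), on 3 and 4 counts in control and 14 and 27 under αMARCO, and DESeq2 (adjusted p = 0.14) and each fit with 1 library left out lost this call. F4/80 (Adgre1), the other macrophage antigen of the sort, was at 574 and 720.2 CPM in the WT control libraries and 444 and 439 CPM with αMARCO. For Adgre1 in Unc93b1 3d/3d TAMs the levels were 479 and 544 CPM without αMARCO and 373 and 331 CPM with it.

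Itgax, which lies next to Itgam (αX or CD11c, chromosome 7, 128129547 to 128150657) was at 589 and 596 CPM in the WT control libraries and 601 and 606 CPM with αMARCO. For Itgax in Unc93b1 3d/3d TAMs the levels were 480.4 and 527 CPM without αMARCO and 669 and 461 CPM with it. Its log2 fold changes ran from 0.03 to 0.22 in the 4 comparisons, with none called. Itgb2 (β2, chromosome 10, 77530252 to 77565708), which all of these α chains need to reach the surface, was at 850.4 and 896 CPM in the WT control libraries and 808 and 799 CPM with αMARCO. For Itgb2 in Unc93b1 3d/3d TAMs the levels were 498 and 555 CPM without αMARCO and 590.3 and 622 CPM with it. It was higher in WT control than in Unc93b1 3d/3d control TAMs by 0.71 (SE 0.10, edgeR adjusted p = 0.00239), and all 4 WT libraries lay above all 4 Unc93b1 3d/3d libraries. Between αMARCO and control in WT its difference was −0.11 (SE 0.09, edgeR adjusted p = 0.347).

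Per kb of gene model, αM, αX and αD together stood at 0.782 to 0.819 times the β2 level in WT control. In the other 6 libraries they stood at 0.917 to 1.15 times. αL (Itgal), a further β2 partner at 71.9 to 152 CPM, was left out of this sum. αD made up 3.36% and 2.68% of this α sum in WT control, 0.364% and 0.426% in WT αMARCO and 0.0253% or less in the 4 Unc93b1 3d/3d libraries. Of the summed level per kb of the 17 α chain identifiers chosen here, which leave out Itgal and Itgae, αX held 30.7% to 42.6%, αM 23.1% to 36.4% and α5 12.9% to 19.8%. The most abundant adhesion genes per kb were, in order, Itgb2 (230.2 CPM per kb, mean of 8 libraries), Itgax (118), Itgb1 (96.5), Itgam (96.2), Itgb5 (75.8), Cd44 (70.9), Selplg (62.9), Itga5 (54.7) and Itgb7 (43.5). This order is of means over all 8 libraries and was not that of every group. In WT control the group mean of Selplg (94.4) was above those of Cd44 (67.9) and Itgb5 (56.2), and Itgb1 and Itgax were level (124 and 123). In WT αMARCO Itgam (130.2) was above Itgax (126), and Itga5 (77.2) above Selplg (50.3).

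**Figure D3:**
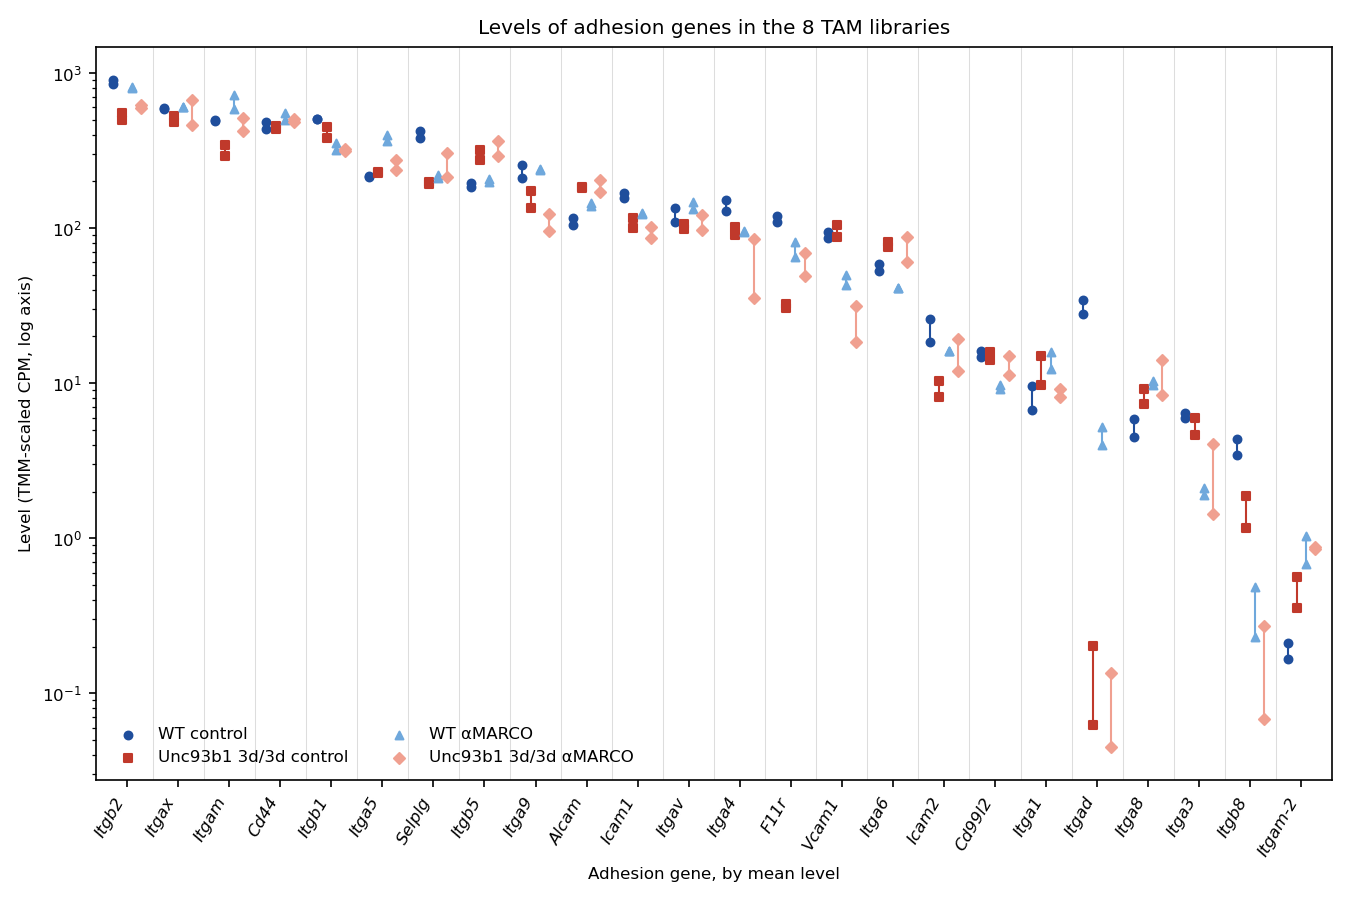
Levels (TMM-scaled CPM, log axis) of the adhesion genes whose value in every library is given, each point a library and each line joining the 2 libraries of a group. Itgad spanned 34.6 to 0.0452 CPM, and both of its WT control libraries lay above all others, while the 2 Unc93b1 3d/3d αMARCO libraries lay far apart for Itga4 and Itga3.

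Among receptors for fibronectin, VCAM-1 and other RGD or matrix ligands, Itga5 (α5, the fibronectin receptor chain, chromosome 15, 103344286 to 103366763) was at 217 and 215 CPM in the WT control libraries and 366 and 396 CPM with αMARCO. For Itga5 in Unc93b1 3d/3d TAMs the levels were 225 and 229 CPM without αMARCO and 273 and 238 CPM with it. Both WT αMARCO libraries lay above the other 6. It rose with αMARCO in WT at a log2 fold change of 0.83 (SE 0.08, edgeR adjusted p = 0.000169) and was called in each of the 10 alternatives tried, while the difference in Unc93b1 3d/3d TAMs was 0.18 (SE 0.22, edgeR adjusted p = 0.856). Itga4 (α4, which with β1 binds VCAM-1 and fibronectin, chromosome 2, 79255426 to 79333123) was at 151 and 129 CPM in the WT control libraries and 96.2 and 94.5 CPM with αMARCO. For Itga4 in Unc93b1 3d/3d TAMs the levels were 102 and 89.6 CPM without αMARCO and 84.6 and 35.7 CPM with it. WT control was the highest group, with log2 fold changes of 0.53 (SE 0.11, edgeR adjusted p = 0.0125) over Unc93b1 3d/3d control and −0.55 (SE 0.09, edgeR adjusted p = 0.00164) for αMARCO over control. Its call between genotypes was lost without the first WT control library (0.42) or the second Unc93b1 3d/3d control library (0.43), and its αMARCO call without the first WT control library (−0.44).

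Itga9 (α9, a chain related to α4, chromosome 9, 118606690 to 118901003) was at 209 and 254 CPM in the WT control libraries and 239 and 236 CPM with αMARCO. For Itga9 in Unc93b1 3d/3d TAMs the levels were 134 and 172 CPM without αMARCO and 123 and 95.5 CPM with it. The 4 WT libraries lay above the 4 Unc93b1 3d/3d libraries. It was called between control genotypes at 0.58 (SE 0.14, edgeR adjusted p = 0.0245), a call lost without the second WT control library (0.44) or the first Unc93b1 3d/3d control library (0.41), and its difference under αMARCO was 1.12 (SE 0.21, edgeR adjusted p = 0.356). Itgav (αv, a chain for vitronectin and latent TGF-β) was at 109.6 and 136 CPM in the WT control libraries and 133 and 147 CPM with αMARCO. For Itgav in Unc93b1 3d/3d TAMs the levels were 106 and 99.2 CPM without αMARCO and 122 and 96.9 CPM with it. Itgav was not called in the fits of all libraries. Itga8 (α8, an RGD receptor chain of mesenchymal cells) was at 4.48 and 5.88 CPM in the WT control libraries and 10.3 and 9.73 CPM with αMARCO. For Itga8 in Unc93b1 3d/3d TAMs the levels were 7.35 and 9.19 CPM without αMARCO and 14.2 and 8.44 CPM with it. It rose with αMARCO in WT at a log2 fold change of 0.96 (SE 0.21, edgeR adjusted p = 0.00601), a call lost without the first WT αMARCO library (0.93, adjusted p = 0.0527).

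For the β chains, Itgb1 (β1, the common partner of matrix-binding α chains, chromosome 8, 128685654 to 128733200) was at 502 and 508 CPM in the WT control libraries and 319 and 353 CPM with αMARCO. For Itgb1 in Unc93b1 3d/3d TAMs the levels were 379.9 and 450.4 CPM without αMARCO and 323 and 315 CPM with it. WT control libraries were the highest, and Itgb1 fell in WT with αMARCO at a log2 fold change of −0.58 (SE 0.09, edgeR adjusted p = 0.00108). Its difference between control genotypes was 0.27 (SE 0.11, edgeR adjusted p = 0.112) and was not called. Itgb5 (β5, partner of αv, chromosome 16, 33829665 to 33949153) ran the other way between genotypes, at 195 and 183 CPM in the WT control libraries and 199 and 209 CPM with αMARCO. For Itgb5 in Unc93b1 3d/3d TAMs the levels were 275 and 320.4 CPM without αMARCO and 291 and 366 CPM with it. All 4 WT libraries lay below all 4 Unc93b1 3d/3d libraries, with log2 fold changes of −0.67 (SE 0.10, edgeR adjusted p = 0.00325) in control and, not called, −0.69 (SE 0.21, edgeR adjusted p = 0.651) under αMARCO. Itgb8 (β8, which with αv binds latent TGF-β, chromosome 12, 119158022 to 119238802) was low, at 3.42 and 4.38 CPM in the WT control libraries and 0.486 and 0.232 CPM with αMARCO. For Itgb8 in Unc93b1 3d/3d TAMs the levels were 1.89 and 1.17 CPM without αMARCO and 0.271 and 0.0680 CPM with it. In WT TAMs it fell with αMARCO at a log2 fold change of −3.45 (SE 0.45, edgeR adjusted p = 0.000593), from 65 and 79 counts to 10 and 6. Between control genotypes Itgb8 was called higher in WT at 1.35 (SE 0.37, edgeR adjusted p = 0.0348), but not by DESeq2 (adjusted p = 0.0777), nor without the second WT control library (1.17) or the second Unc93b1 3d/3d control library (1.02).

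Laminin- and collagen-binding α chains were less abundant. Itga6 (α6, a laminin receptor chain, chromosome 2, 71745616 to 71858416) was at 52.7 and 58.9 CPM in the WT control libraries and 40.9 and 41.3 CPM with αMARCO. For Itga6 in Unc93b1 3d/3d TAMs the levels were 75.0 and 81.8 CPM without αMARCO and 87.5 and 60.8 CPM with it. Every Unc93b1 3d/3d library lay above every WT library. It was called lower in WT control at −0.51 (SE 0.10, edgeR adjusted p = 0.0102), a call lost without the first WT control library (−0.42) or the second Unc93b1 3d/3d control library (−0.45). Itga3 (α3, another laminin receptor chain) was at 6.01 and 6.38 CPM in the WT control libraries and 1.90 and 2.12 CPM with αMARCO. For Itga3 in Unc93b1 3d/3d TAMs the levels were 5.97 and 4.62 CPM without αMARCO and 4.07 and 1.43 CPM with it. Itga3 fell with αMARCO in WT at a log2 fold change of −1.61 (SE 0.25, edgeR adjusted p = 0.0014). Epithelial markers summed to 106 and 52.8 CPM in WT control and to 30.9 and 32.0 CPM in WT αMARCO. Nearly all of this was Cdh1 and Krt8, with Krt5, Krt18, Krt19 and Cldn4 at 0.666 CPM or less in every library. Krt14 was at 0 and 1.83 CPM in WT control. Epcam was at 1.42 and 0.832 CPM in WT control and 0.146 and 0 CPM in WT αMARCO. Cdh1 was at 61.6 and 14.7 CPM in WT control and 7.34 and 9.50 CPM in WT αMARCO. Fibroblast markers summed to 113 and 91.5 against 40.1 and 26.95 CPM. Col3a1 was their largest part, at 71.0 and 63.9 CPM in WT control and 21.9 and 13.3 CPM in WT αMARCO. Col1a1 and Col1a2 were not called (log2 fold changes −0.05 and 0.43), while 4 of the 8 fibroblast markers were called lower. The part of these cells in the Itga3 difference was not tested. Itga1 (α1, a collagen receptor chain) was at 9.59 and 6.71 CPM in the WT control libraries and 12.4 and 16.0 CPM with αMARCO. For Itga1 in Unc93b1 3d/3d TAMs the levels were 14.9 and 9.80 CPM without αMARCO and 9.22 and 8.17 CPM with it. It rose in WT with αMARCO at a log2 fold change of 0.81 (SE 0.21, edgeR adjusted p = 0.0156), and this call was lost without the second WT αMARCO library (0.61, adjusted p = 0.149).

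Of the counter-receptors, Icam1 (ICAM-1, the ligand of αLβ2 and αMβ2, chromosome 9, 21015985 to 21028817) was at 156 and 169.5 CPM in the WT control libraries and 125 and 124 CPM with αMARCO. For Icam1 in Unc93b1 3d/3d TAMs the levels were 99.9 and 116 CPM without αMARCO and 102 and 86.2 CPM with it. WT control was the highest group. Its log2 fold change between control genotypes was 0.58 (SE 0.10, edgeR adjusted p = 0.00656), a call lost without the first Unc93b1 3d/3d control library (0.47), and with αMARCO in WT it was −0.38 (SE 0.08, edgeR adjusted p = 0.00532), under the fold change threshold. Icam2 (ICAM-2, a ligand of αLβ2 found on endothelium, platelets and leukocytes) was at 18.5 and 25.9 CPM in the WT control libraries and 16.1 and 16.1 CPM with αMARCO. For Icam2 in Unc93b1 3d/3d TAMs the levels were 10.4 and 8.18 CPM without αMARCO and 11.9 and 19.3 CPM with it. It was called higher in WT control, at 1.25 (SE 0.21, edgeR adjusted p = 0.00458). Of the 7 endothelial markers tested in that comparison 1 was called, Pecam1, and the median log2 fold change of the 7 was 0.08. The part of endothelial cells in the Icam2 difference was not tested. Alcam (ALCAM, the ligand of CD6, chromosome 16, 52248996 to 52454074) was at 116 and 104 CPM in the WT control libraries and 139 and 145 CPM with αMARCO. For Alcam in Unc93b1 3d/3d TAMs the levels were 183 and 181 CPM without αMARCO and 204 and 171 CPM with it. It was called lower in WT control than in Unc93b1 3d/3d control, at −0.74 (SE 0.10, edgeR adjusted p = 0.00137), and with αMARCO in WT its difference was 0.38 (SE 0.08, edgeR adjusted p = 0.00634). CD6, its T cell receptor, was at 15.4 and 18.9 CPM in the WT control libraries and 2.62 and 2.43 CPM with αMARCO. For Cd6 in Unc93b1 3d/3d TAMs the levels were 5.66 and 2.34 CPM without αMARCO and 1.63 and 0.476 CPM with it.

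Vcam1 (VCAM-1, the ligand of α4β1, chromosome 3, 116109949 to 116129688) was at 86.3 and 94.3 CPM in the WT control libraries and 42.8 and 49.6 CPM with αMARCO. For Vcam1 in Unc93b1 3d/3d TAMs the levels were 87.5 and 104 CPM without αMARCO and 18.4 and 31.6 CPM with it. Both αMARCO groups lay below both control groups. In WT it fell with αMARCO at a log2 fold change of −0.96 (SE 0.10, edgeR adjusted p = 0.000176). In Unc93b1 3d/3d TAMs the difference was −1.93 (SE 0.32, edgeR adjusted p = 0.823), not called by edgeR at an unadjusted p of 0.00095. It was called by DESeq2 (adjusted p = 7.38e-05) and by edgeR without the low-count filter. Without 1 of the Unc93b1 3d/3d αMARCO libraries it was −1.59 or −2.38. Between the control genotypes the difference was −0.10 (SE 0.11, edgeR adjusted p = 0.548), not called.

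F11r (JAM-A, a junctional molecule of epithelium, endothelium and leukocytes, chromosome 1, 171437535 to 171464603) was at 119 and 109 CPM in the WT control libraries and 65.5 and 81.5 CPM with αMARCO. For F11r in Unc93b1 3d/3d TAMs the levels were 32.4 and 30.5 CPM without αMARCO and 48.8 and 69.4 CPM with it. It was 3.62 times as high in WT control as in Unc93b1 3d/3d control, at a log2 fold change of 1.84 (SE 0.10, edgeR adjusted p = 9.42e-06). In WT it fell with αMARCO at a log2 fold change of −0.62 (SE 0.11, edgeR adjusted p = 0.0026), a call lost without the first WT αMARCO library (−0.46). In Unc93b1 3d/3d TAMs both αMARCO libraries lay above both control libraries, at 0.92 (SE 0.26, edgeR adjusted p = 0.823). Cd99l2 (CD99L2, which takes part in leukocyte passage through endothelium) was at 16.0 and 14.7 CPM in the WT control libraries and 9.23 and 9.69 CPM with αMARCO. For Cd99l2 in Unc93b1 3d/3d TAMs the levels were 14.2 and 15.8 CPM without αMARCO and 14.9 and 11.2 CPM with it. It fell with αMARCO in WT at a log2 fold change of −0.69 (SE 0.15, edgeR adjusted p = 0.00699), a call lost without the first WT αMARCO library (−0.64, adjusted p = 0.0654).

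Selplg (PSGL-1, chromosome 5, 113818536 to 113832644) was at 424 and 383 CPM in the WT control libraries and 209 and 221 CPM with αMARCO. For Selplg in Unc93b1 3d/3d TAMs the levels were 194 and 198 CPM without αMARCO and 214 and 307 CPM with it. Both WT control libraries lay above the other 6. It was 2.06 times as high in WT control as in Unc93b1 3d/3d control, at 1.03 (SE 0.10, edgeR adjusted p = 0.000285), and fell with αMARCO in WT at a log2 fold change of −0.90 (SE 0.09, edgeR adjusted p = 0.000153). Cd44 (CD44, chromosome 2, 102811141 to 102901665) was at 481 and 438 CPM in the WT control libraries and 499.7 and 548 CPM with αMARCO. For Cd44 in Unc93b1 3d/3d TAMs the levels were 435 and 453 CPM without αMARCO and 479.9 and 506 CPM with it. Its log2 fold changes ran from 0.03 to 0.20 over the 4 comparisons, with none called.

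In Unc93b1 3d/3d TAMs, αMARCO against control gave 0 called adhesion genes of 30 tested, with 0% of all 15428 genes called higher and 0% lower by edgeR. At an unadjusted p under 0.05 there were 3 of the 30 (Vcam1, Itgb8 and F11r) and 744 of all genes, and DESeq2 called 1 adhesion gene (Vcam1) and 52 in all. The median log2 fold change of the 30 was 0.08, and 0.03 over all genes. Of genes called lower with αMARCO in WT, Itga4, Itgb8, Itga3, Itgb1, Vcam1 and Cd99l2 also had negative log2 fold changes here, with none called. These were −0.67, −3.02, −0.93, −0.37, −1.93 and −0.19 in that order. Those of F11r and Selplg were positive (0.92 and 0.42), and Itgad was not tested. Leaving out 1 of the 2 Unc93b1 3d/3d αMARCO libraries kept 1 library in that group, with no spread within it. Calls from these fits are not given. On leaving out 1 library, log2 fold changes spanned −2.38 to −1.59 for Vcam1, −4.32 to −2.46 for Itgb8 and 0.64 to 1.16 for F11r. Itga4 was at 84.6 and 35.7 CPM in the 2 Unc93b1 3d/3d αMARCO libraries, and its log2 fold change without the first was −1.41.

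Between the genotypes under αMARCO, edgeR called 0 of 31 adhesion genes, with 0% of all 15722 genes called higher and 0% lower in WT. An unadjusted p under 0.05 was reached by 7 of the 31 and by 1076 of all genes, and DESeq2 called 2 adhesion genes (Itgad and Itga9, both higher in WT) and 198 in all. The 7 were Itgad, Itga9, Vcam1, Itga1 and Itga5, higher in WT, and Itga6 and Itgb5, lower. Leaving out 1 library kept 1 library in its group, with no spread within it. Calls from these fits are not given. Their log2 fold changes spanned 5.03 to 6.51 for Itgad, 0.95 to 1.32 for Itga9 and 0.56 to 1.33 for Vcam1. They spanned 0.51 to 0.89 for Itga1, 0.48 to 0.69 for Itga5, −1.09 to −0.56 for Itga6 and −0.84 to −0.51 for Itgb5. With all 8 libraries in 1 model the log2 fold change of Itgad was 5.70 (edgeR adjusted p = 0.00358). With a block for the replicate number it was 5.68 (edgeR adjusted p = 0.00435), and these 2 fits called it.

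Whether the αMARCO difference itself differed between genotypes was tested as an interaction over all 8 libraries. It was called for 0 of 33 adhesion genes, and for 0% of all 16620 genes in either direction by edgeR. An unadjusted p under 0.05 was found for 6 of the 33 and 2549 of all genes, and DESeq2 called 2 adhesion genes (Selplg and F11r) and 197 in all. For Selplg the difference of log2 fold changes was −1.32 (SE 0.27, edgeR adjusted p = 0.284) and for F11r −1.54 (SE 0.28, edgeR adjusted p = 0.281), which is the αMARCO difference in WT minus that in Unc93b1 3d/3d TAMs. The other 4 were Icam2 at −1.21 (SE 0.39, edgeR adjusted p = 0.318), Vcam1 at 0.98 (SE 0.34, edgeR adjusted p = 0.318), Itga5 at 0.65 (SE 0.21, edgeR adjusted p = 0.318) and Itga1 at 1.30 (SE 0.40, edgeR adjusted p = 0.318). Leaving out the first or second Unc93b1 3d/3d αMARCO library gave, in that order, −1.55 and −1.04 for Selplg and −1.77 and −1.28 for F11r. For Vcam1 the values were 0.64 and 1.41. Each of these fits kept 1 library in that group and held no spread within it, so their calls are not given.

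**Figure D4:**
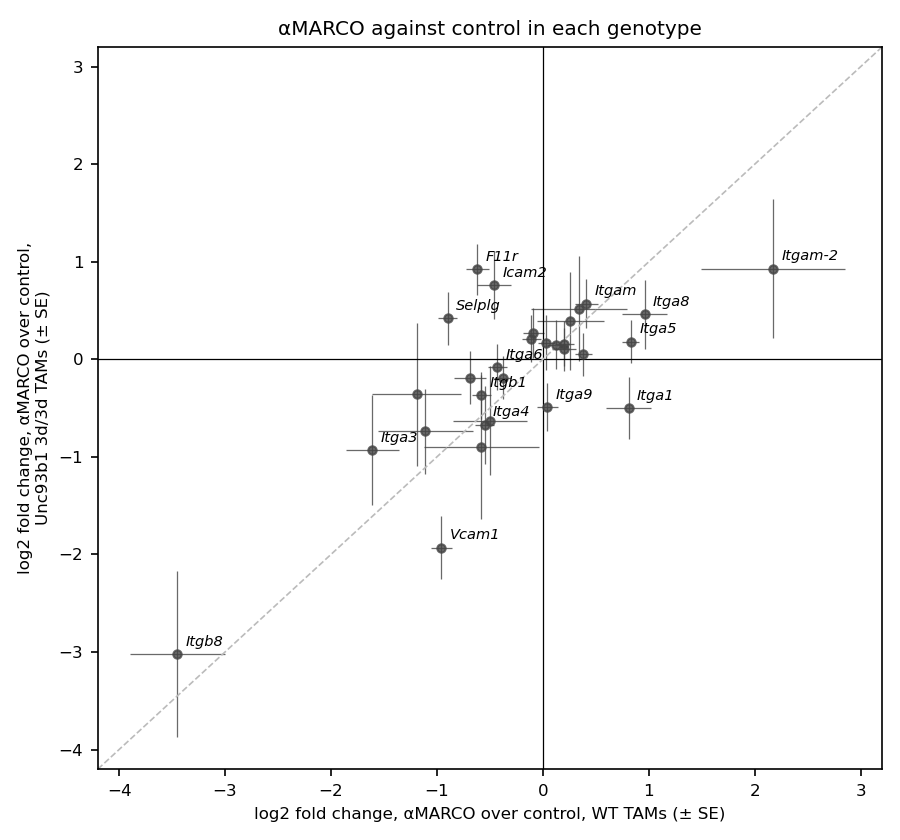
Log2 fold changes of αMARCO over control in WT TAMs (x axis) and in Unc93b1 3d/3d TAMs (y axis), with standard errors, for the 30 adhesion genes tested in both, and a dashed line where they are equal. F11r and Selplg lay below 0 in WT (−0.62 and −0.90) and above 0 in Unc93b1 3d/3d (0.92 and 0.42), while Vcam1 and Itgb8 lay below 0 in both.

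The remaining adhesion genes were not called by edgeR with the settings above in the fits of all libraries. With 1 library left out, Itgb3, Itgb4, Itgb7, Itga11 and Jam2 were each called in at least 1 comparison. For αMARCO in WT, other settings called Itgb3 lower (DESeq2), Itgb4 lower (no low-count filter, or 10 counts in every library) and Itga11 higher (no low-count filter). Itgb7 (β7, partner of α4 in gut homing) ran from 91.2 to 146.5 CPM and Itgb3 (β3, partner of αv and αIIb) from 7.62 to 27.9 CPM. Itga2b (αIIb of platelets) ran from 0.943 to 2.38 CPM, with platelet genes other than Ppbp under 1 CPM. Itgb4, Itga2, Itga7 and Itga10, chains of epithelium, muscle and cartilage, lay between 0.544 and 3.14 CPM. Esam stood at 1.17 CPM or less. Itga11 had 31 counts in WT αMARCO and 4 in WT control, a ratio of 6.17 (exact 95% interval 2.18 to 24.1), and Jam2 had 28 counts in WT against 4 in Unc93b1 3d/3d among the controls, a ratio of 6.74 (2.36 to 26.4). Jam3 and Itgb6 were at 0.408 and 0.0972 CPM or less. Jam2, Jam3 and Itgb6 passed the low-count filter in no comparison with all libraries kept.

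Genes that work with these receptors were counted by list. Of all genes tested, 6.58% were called higher and 6.40% lower in WT control than in Unc93b1 3d/3d control. With αMARCO in WT, 8.91% of all genes were called higher and 11.8% lower. These shares go beside the counts of each list below. Of 32 tested genes of integrin activation and the adhesion complex, 5 were called higher and 3 lower in WT control than in Unc93b1 3d/3d control (median log2 fold change 0.03), among them Skap1, an adaptor of T cells (log2 fold change 2.92, SE 0.49, edgeR adjusted p = 0.00478), Fgr, a kinase that relays β2 integrin signals (log2 fold change 0.97, SE 0.10, edgeR adjusted p = 0.000412), and the kinase Src, which was lower (log2 fold change −0.75, SE 0.14, edgeR adjusted p = 0.00829). With αMARCO in WT, 0 rose and 1 fell, Skap1 (log2 fold change −2.23, SE 0.36, edgeR adjusted p = 0.00151).

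Among matrix and plasma ligands, 0 were called higher and 9 lower in WT control of 23 tested (median −0.63), the largest being Tgfb3 (log2 fold change −1.88, SE 0.40, edgeR adjusted p = 0.0204), Spp1, the RGD ligand osteopontin (log2 fold change −0.93, SE 0.20, edgeR adjusted p = 0.0229), Col4a2 (log2 fold change −0.72, SE 0.15, edgeR adjusted p = 0.0104) and Col3a1 (log2 fold change −0.67, SE 0.10, edgeR adjusted p = 0.0029). With αMARCO in WT 10 fell and 2 rose of 22 tested (median −0.67), led by Mfge8, an αv ligand (log2 fold change −2.01, SE 0.26, edgeR adjusted p = 0.00171), and the collagen and basement membrane genes Col3a1 (log2 fold change −1.94, SE 0.23, edgeR adjusted p = 0.00294), Nid1 (log2 fold change −1.66, SE 0.28, edgeR adjusted p = 0.00714) and Col4a2 (log2 fold change −1.63, SE 0.17, edgeR adjusted p = 0.000197). The fibroblast markers, of which Col3a1 is also a member and the largest part, summed to 192 and 160.0 CPM in Unc93b1 3d/3d control libraries. They summed to 113 and 91.5 CPM in WT control and to 40.1 and 26.95 CPM in WT αMARCO, and their part was not tested.

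For selectins and the enzymes that decorate PSGL-1, 3 of 9 were higher in WT control and 0 lower: St3gal6 (log2 fold change 0.89, SE 0.20, edgeR adjusted p = 0.0166), Gcnt1 (log2 fold change 0.84, SE 0.10, edgeR adjusted p = 0.0011) and Fut7 (log2 fold change 0.77, SE 0.18, edgeR adjusted p = 0.0198), a sialyl-, an N-acetylglucosaminyl- and a fucosyltransferase that build the selectin-binding glycan. With αMARCO in WT, St3gal6 fell (log2 fold change −1.12, SE 0.19, edgeR adjusted p = 0.00185), the only 1 of 9 called. In the list of other leukocyte adhesion and transmigration genes, 7 of 20 were higher and 1 lower in WT control (median 0.48), led by Cd96 (log2 fold change 4.15, SE 0.57, edgeR adjusted p = 0.00189), Pecam1 (log2 fold change 2.91, SE 0.12, edgeR adjusted p = 1.73e-06), Spn (log2 fold change 2.82, SE 0.13, edgeR adjusted p = 3.02e-06) and Cd6 (log2 fold change 2.11, SE 0.38, edgeR adjusted p = 0.0115). With αMARCO in WT, 9 of 20 fell and 0 rose (median −0.57), led by Cd6 (log2 fold change −2.75, SE 0.20, edgeR adjusted p = 5.78e-05), Cd96 (log2 fold change −2.52, SE 0.43, edgeR adjusted p = 0.00214), Cd34 (log2 fold change −1.84, SE 0.63, edgeR adjusted p = 0.0471) and Spn (log2 fold change −1.37, SE 0.12, edgeR adjusted p = 0.000153). CD6 and CD96 are T and NK cell receptors, CD43 (Spn) is a sialoglycoprotein of leukocytes and PECAM-1 is found on endothelium, monocytes and platelets. Pecam1 was at 203 and 199 CPM in the WT control libraries and 107 and 106 CPM with αMARCO. For Pecam1 in Unc93b1 3d/3d TAMs the levels were 28.9 and 24.1 CPM without αMARCO and 27.5 and 26.2 CPM with it. Its WT libraries lay above all Unc93b1 3d/3d libraries. In Unc93b1 3d/3d TAMs with αMARCO, between genotypes under αMARCO and in the interaction, 0 genes of these 4 lists were called by edgeR. At an unadjusted p under 0.05 there were 6 of 81, 21 of 81 and 19 of 84. Over all genes these were 744 of 15428, 1076 of 15722 and 2549 of 16620. DESeq2 called 1, 13 and 4 of the listed genes and 52, 198 and 197 genes in all.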

How the data were processed

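Raw counts per gene were taken from 3 tables deposited by the authors, which share libraries. Per the labels, reads were trimmed with fastp, aligned with HISAT2 (2.0.5) to GRCm38 and counted with featureCounts (1.5.0). Strandedness is not given in the sources used here. The authors' normalized values, FPKM and comparisons (fold changes and p-values, made with DESeq2 1.40.2) were not used, among them 30 columns of per-sample values. The tables were joined by gene identifier: 95230 counts stood in more than 1 table and 0 differed, and 11598 values of genes absent from a table were set to 0, where the largest that could be checked was 1. Single-cell data were not analysed here.

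Groups came from the sample labels. Each comparison was fitted on its 4 libraries, and the interaction on all 8, with edgeR's quasi-likelihood test (4.0.16, R 4.3.3) after TMM scaling, filterByExpr and robust estimation, with Benjamini-Hochberg adjustment over all genes tested. A call needed an adjusted p no higher than 0.05 with a log2 fold change of 0.5 or more in size. The script was tested on simulated data. Levels are TMM-scaled CPM, and intervals of count ratios are exact binomial and cover counting error only. Nothing says that libraries of αMARCO mice came from separate animals, so p-values measure the spread between these libraries.

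Values in every library are given for each adhesion gene called anywhere and for Itgam, Itgax, Itgb2, Itgb1, Itga4, Itgav, Icam1, Vcam1, Selplg and Cd44. From each list of related genes at most 4 called genes with the largest fold changes were named per comparison, and 1 such gene is not reported here. The genes and lists were chosen with earlier results of these data known. Alternatives were DESeq2 (1.42.0), RLE size factors, no low-count filter, 1 model of all 8 libraries, a minimum of 10 counts in every library, a replicate block, no fold change threshold and leaving out each library. A fit with 1 library left out kept 1 library in its group and held no spread within that group. Calls gained or lost in such a fit rest on the spread of the remaining libraries. Gene positions are those of the tables, and 35 of the 36 are the same in GENCODE M21. Figures were drawn with matplotlib (3.10.9).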

Additional observations from a re-analysis of the deposited data

How the results depend on the processing

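Settings were changed 1 at a time, and counts are of adhesion genes called and, after a slash, of all genes called. A fit with 1 library left out kept 1 library in its group, so its calls held no spread within that group. For comparisons with the Unc93b1 3d/3d αMARCO libraries, which lay far apart, such counts are not given. For αMARCO in WT, 13/3236 became 3/164 in the 8-library model, 17/5487 without a fold threshold, 12/3086 with the replicate block, and 10 to 14/1940 to 3951 with 1 library left out. For αMARCO in Unc93b1 3d/3d, 0/0 became 1/52 with DESeq2, 1/174 without the filter, 0/1 in the 8-library model, 0/5 with the replicate block, and 0 to 10/1 to 5500 with 1 library left out. For genotypes in control, 13/2025 became 3/364 in the 8-library model, 14/2395 with the replicate block, and 10 to 13/1493 to 2232 with 1 library left out. For genotypes under αMARCO, 0/0 became 2/198 with DESeq2, 1/107 without the filter, 1/108 in the 8-library model, 1/97 with the replicate block, and 0 to 11/17 to 6366 with 1 library left out. For the interaction, 0/0 became 2/197 with DESeq2, 2/152 without the filter, 0/0 with the replicate block, and 0 to 10/0 to 6440 with 1 library left out. RLE size factors changed no count of adhesion genes. No paired meaning of the replicate numbers is given by the labels, and same-numbered libraries deviated together with correlations of −0.00 to 0.14 over the 4 comparisons. Log2 fold changes changed sign on leaving out 1 library, for αMARCO in WT: Itga9 −0.10 to 0.18. Log2 fold changes changed sign on leaving out 1 library, for αMARCO in Unc93b1 3d/3d: Alcam −0.07 to 0.17, Itgb5 −0.03 to 0.31, Itga6 −0.35 to 0.16, Itgav −0.06 to 0.25, Itgax −0.11 to 0.41. Log2 fold changes changed sign on leaving out 1 library, for genotypes in control: Vcam1 −0.22 to 0.02, Cd99l2 −0.06 to 0.09, Cd44 −0.02 to 0.11. Log2 fold changes changed sign on leaving out 1 library, for genotypes under αMARCO: Itga3 −1.01 to 0.50, Itga8 −0.50 to 0.25, Selplg −0.51 to 0.01, Itgam-2 −0.35 to 0.26, Icam2 −0.26 to 0.43, Itgax −0.15 to 0.39. Log2 fold changes changed sign on leaving out 1 library, for the interaction: Itga3 −1.25 to 0.26, Itgb8 −1.04 to 0.89, Itga4 −0.39 to 0.87, Itgb5 −0.19 to 0.13, Itgav −0.07 to 0.27, Itgax −0.40 to 0.15, Cd44 −0.03 to 0.10. With 10 counts in every library Itgam-2 in the genotypes under αMARCO moved to 0.03 from −0.01 and Itgb5 in the interaction moved to 0.04 from −0.04. The cause was not tested. Each group held 2 libraries, and genes at a few counts were limited by depth.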
